A study of Mus musculus with 4 samples.

Results

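Voltage-gated calcium and sodium channel genes were examined in cultured mouse islets of Langerhans, the endocrine micro-organs of the pancreas. They were taken as all genes whose name on the array begins with Cacna, Cacnb or Cacng, or has the form Scn, a number and a or b. This name rule gave 39 genes out of 26265 named genes on the array, of which 37, measured by 53 probes, are described and counted here. The rule used no measured value. Islets came from C57BL/6 mice aged 8 weeks and were kept for 24 h in RPMI1640 with 5.6 mM glucose. They received either vehicle, which was DMSO, or GKA, a glucokinase activator, at 30 µM. There were 2 arrays per group, numbered replicate 1 and replicate 2, and total RNA was measured by 1-colour hybridisation. Whether replicates are separate animals or cultures is not in the labels. The p-values therefore reflect the spread among these 4 samples alone, and that spread may be technical.

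A voltage-gated calcium channel is built around a pore-forming alpha1 subunit, encoded by a Cacna1 gene. Intracellular beta subunits (Cacnb) and extracellular alpha2delta subunits (Cacna2d) bring the pore to the membrane and tune its gating, and gamma subunits (Cacng) include partners of the muscle channel and of neuronal glutamate receptors. A voltage-gated sodium channel has a pore-forming alpha subunit and small beta subunits that shape its gating and bind other cells or matrix. In pancreatic beta cells, glucose metabolism closes ATP-sensitive potassium channels, the membrane depolarises, and calcium entering through L-type and other voltage-gated channels triggers insulin granule release. Sodium channels contribute to the upstroke of the islet cell action potential in rodents.

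Signals are given as log2 of the background-subtracted intensity minus the log2 75th percentile of that array. A value of 0 is thus the array's 75th percentile, and each unit is a doubling. Since probes differ in brightness, values are compared between arrays for the same probe and never between genes. The 75th percentile was at an intensity of 750.8 and 755.5 with vehicle and of 556.8 and 597.9 with GKA. Between 59.7% and 63.5% of 39429 non-control probes were well above background on an array, and no array held a saturated probe (0 on each). All 4 arrays lay on 1 slide, with the vehicle samples at its first positions and the GKA samples after them, so position and treatment cannot be told apart. In a whole-islet sample, fewer cells of a type and less RNA per cell cannot be told apart either. All 10 beta cell markers and all 10 markers of other islet endocrine cells were above background on all 4 arrays, while 6 of 10 acinar markers, among them Cpa1, Prss2 and Pnlip, were above it on no array.

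Of the 37 channel genes, 27 were tested. A gene was tested if, in either group, both arrays showed a probe of it well above background, and 23 of the tested probes were so on all 4 arrays. With GKA, 4 of the 27 fell (Cacna1g, Cacnb3, Cacng4 and Cacna1s) and 2 rose (Scn1a and Scn3a), while 21 did not pass an adjusted p of 0.05 in limma's moderated test with Benjamini-Hochberg adjustment over 17178 genes. The 6 that passed were 22.2% of those tested, beside 17.1% of all genes in either direction, 9.11% higher and 8.01% lower. The median log2 fold change was -0.13 over the channel genes and -0.01 over all genes. That of the channel genes was 0.22 with normexp on the median spot signals, another background correction, -0.52 without scaling between arrays and -0.68 with spike-in scaling, which sets the arrays level on 7 E1A control probes. The median size of change, whatever its sign, was 0.34 against 0.26. The arrays of the groups did not overlap for 19 of the 27, or 70.4%, beside 65.9% of all genes, a share that lies close to this background. A change of at least 2-fold was seen in 7.41% of channel genes and 6.29% of all genes. Cacng4 and Cacna1s were tested through their vehicle arrays and were not above background on both GKA arrays. Among the 23 genes above background on all 4 arrays, 2 were lower (Cacna1g and Cacnb3) and 2 higher (Scn1a and Scn3a). With an intensity trend in limma's test, the same 2 were lower and the same 2 higher.

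**Figure D1:**
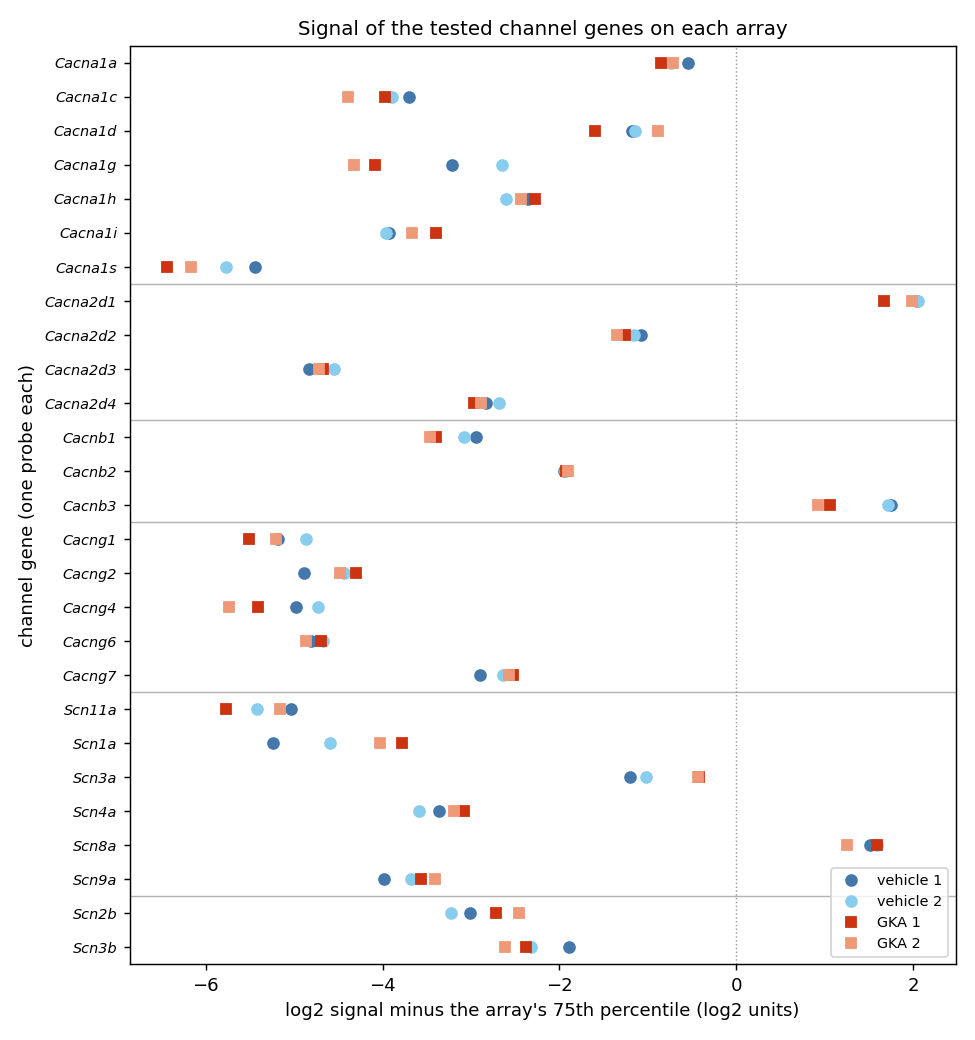
Signal of the 27 tested channel genes on each of the 4 arrays. The x axis is log2 signal relative to the array's 75th percentile, circles are vehicle arrays, squares are GKA arrays, and grey lines part the subunit classes; the pairs of circles and squares stand clear of each other for Cacna1g, Cacnb3 and Scn3a and interleave for Cacna1d, Cacng6 and Scn8a.

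**Figure D2:**
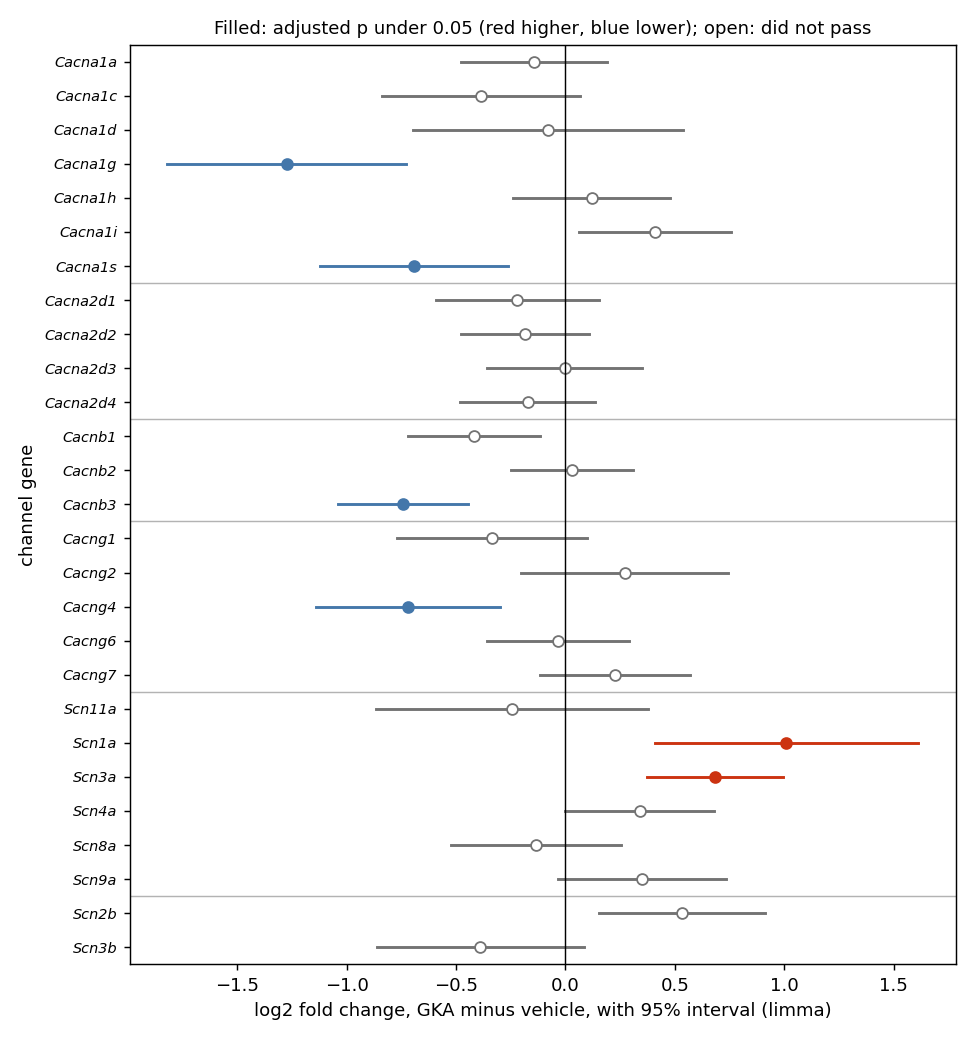
Log2 fold change of each tested channel gene, GKA minus vehicle, with its 95% interval from limma (2 arrays per group). Filled points passed an adjusted p of 0.05, 4 of them lower with GKA and 2 higher; open points did not pass.

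Beside 8.01% of all genes called lower, 2 of 7 tested pore-forming calcium channel genes passed, both lower with GKA. They were Cacna1g, which encodes a T-type channel opened by small depolarisations, and Cacna1s, which encodes the L-type channel of skeletal muscle. The median log2 fold change of the class was -0.14. Cacna1g gave -3.21 and -2.65 with vehicle and -4.08 and -4.32 with GKA. Both GKA values lay below both vehicle values. The fall was 2.42-fold (log2 fold change -1.27 ± 0.22, SE, 95% interval -1.82 to -0.73, adjusted p = 0.0223 by limma). Its tested probe lies on chr11:94270459-94270518, minus strand, of build mm9, and a further kept probe of the gene gave -1.22. That further probe was not well above background on GKA replicate 1. With normexp the change of Cacna1g was -0.30 (adjusted p = 0.0737). Cacna1s was near the limit of detection, at -5.44 and -5.77 with vehicle and -6.43 and -6.16 with GKA. Neither GKA array was well above background, so only a bound can be given. Cacna1s was at least 1.02-fold lower, set against the lowest signal that was well above background on those arrays. That signal is no strict limit, since Cacng1 lay above it on both GKA arrays without being well above background. The adjusted p of 0.0498 by limma belongs to the measured signals of Cacna1s, which differed by -0.69. By limma, Cacna1s missed the threshold with quantile normalization (adjusted p = 0.0612) and with an intensity trend (adjusted p = 0.181). With normexp the sign of Cacna1s turned, to 0.25. Of 10 skeletal muscle markers, 8 were above background on no array (Myh1, Myh2, Myh4, Ckm, Tnnt3, Myod1, Myog and Mb). The 2 others were above it on all 4 arrays: Acta1, skeletal muscle actin, fell (-0.86, adjusted p = 0.0212 by limma), and Des, the filament protein desmin, differed by -0.47 (adjusted p = 0.0568). Signal was summed over all 10 markers, those not above background included, in multiples of the array's 75th percentile. The sum was 0.282 to 0.335 with vehicle and 0.203 to 0.225 with GKA, and its part in the Cacna1s result was not tested.

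The calcium pores best known from beta cells did not pass relative to the 75th percentile. Cacna1d encodes an L-type channel of endocrine cells and gave -1.17 and -1.15 with vehicle and -1.60 and -0.89 with GKA. The GKA arrays lay on either side of the vehicle pair (log2 fold change -0.08 ± 0.24, interval -0.70 to 0.54, adjusted p = 0.840 by limma). A second Cacna1d probe differed by -0.40. Cacna1a, the P/Q-type pore, gave -0.54 and -0.74 with vehicle and -0.85 and -0.71 with GKA. These values overlapped, and the difference was -0.14 ± 0.13 (adjusted p = 0.481). Cacna1c, the other main L-type pore of islets and the heart, differed by -0.39 ± 0.18 (adjusted p = 0.188), with an interval of -0.84 to 0.07. Cacna1a and Cacna1c passed, lower, without scaling (adjusted p = 0.0328 and 0.0156), and with spike-in scaling all 3 did (Cacna1a 0.0278, Cacna1c 0.00300 and Cacna1d 0.0448). The remaining T-type genes differed by 0.12 (Cacna1h) and 0.41 (Cacna1i, adjusted p = 0.0993), and neither passed. With spike-in scaling both were below 0 (-0.43 and -0.14).

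No alpha2delta gene passed relative to the 75th percentile. The log2 fold changes of the 4 tested genes ran from -0.22 to 0.00, with a count of 0 at an adjusted p of 0.05 by limma and 0 at an unadjusted p of 0.05. Over all genes, 17.1% passed, and 6208 of 17178 had an unadjusted p under 0.05. With 4 genes, a count of 0 says little. Cacna2d1, the alpha2delta subunit that binds gabapentin, gave 2.04 and 2.06 with vehicle and 1.67 and 1.99 with GKA. The GKA arrays were both lower, the second only slightly, and the interval of the difference ran from -0.59 to 0.15 (adjusted p = 0.335). Cacna2d2, which also binds gabapentin, gave -1.08 and -1.15 with vehicle and -1.26 and -1.35 with GKA, a difference of -0.19 (adjusted p = 0.304). Cacna2d4, a retinal form, differed by -0.17 and Cacna2d3 by 0.00. Cacna2d1, Cacna2d2 and Cacna2d4 passed, lower, both without scaling (-0.61, -0.57 and -0.56) and with spike-in scaling (-0.77, -0.73 and -0.72).

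Of the 3 intracellular beta subunit genes tested, Cacnb3 fell, beside 8.01% of all genes called lower, and the others did not pass. RefSeq gives Cacnb3 a pair of start sites in assembly GRCm38.p6. The 250 bases before each, and those before the start of Scn1a, are shown because these are the genes that passed, were above background on all 4 arrays and have an entry in the promoter table used. Capitals mark the letters GGGCGG or their reverse complement, the core of the GC box bound by Sp1-type factors.
Cacnb3, chr15:98632078-98632327, plus strand: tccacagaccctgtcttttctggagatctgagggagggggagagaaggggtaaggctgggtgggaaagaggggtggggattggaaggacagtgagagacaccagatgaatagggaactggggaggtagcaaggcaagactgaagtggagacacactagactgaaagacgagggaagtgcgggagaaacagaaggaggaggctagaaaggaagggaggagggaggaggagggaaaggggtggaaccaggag
Cacnb3, chr15:98634517-98634766, plus strand: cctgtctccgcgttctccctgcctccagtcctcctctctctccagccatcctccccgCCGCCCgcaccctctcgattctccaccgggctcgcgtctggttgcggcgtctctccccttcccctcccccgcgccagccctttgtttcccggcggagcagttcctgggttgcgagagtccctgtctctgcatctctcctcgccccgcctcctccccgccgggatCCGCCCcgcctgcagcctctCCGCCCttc
Scn1a, chr2:66440838-66441087, minus strand: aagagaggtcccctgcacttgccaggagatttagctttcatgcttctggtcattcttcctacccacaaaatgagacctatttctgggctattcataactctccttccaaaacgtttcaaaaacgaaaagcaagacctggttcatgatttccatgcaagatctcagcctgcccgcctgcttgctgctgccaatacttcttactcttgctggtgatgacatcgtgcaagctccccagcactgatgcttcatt

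The downstream Cacnb3 window was GC-rich (70.4% G or C) and held 3 matches, the upstream one (56.0%) held 0, and the Scn1a window (46.8%) held 0. Over all promoters of the table, 32.7% of 32851 windows of this length held such a match on either strand, and 38.5% of the 39 windows of channel genes did. The table held 29 of the 37 genes. The cyclic AMP response element TGACGTCA, searched on both strands, was in 0 of the 39 windows and in 1.55% of all windows. Its part TGACG, which the full element also contains, was in 15.4% against 17.8%, the E box CACGTG in 0 of 39 against 6.02%, and TATAAA in 2.56% against 12.4%. A match is a string of letters, and no binding was measured.

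Cacnb3 encodes a beta subunit that has been linked to intracellular calcium release in beta cells. It gave 1.76 and 1.72 with vehicle and 1.06 and 0.93 with GKA. The 4 values formed tight pairs with a clear gap between them. The fall was 1.67-fold (log2 fold change -0.74 ± 0.12, interval -1.04 to -0.45, adjusted p = 0.0189 by limma), measured by a probe on chr15:98474610-98474669, plus strand, of mm9. It was the channel gene with the lowest adjusted p and passed in 12 of 15 other settings. Cacnb2, a beta subunit of heart and islets, gave -1.95 and -1.94 with vehicle and -1.93 and -1.90 with GKA. The 4 values were nearly equal, and the difference was 0.03 (interval -0.25 to 0.31, adjusted p = 0.872). Cacnb1, the skeletal muscle beta subunit, differed by -0.42 ± 0.12 and missed the threshold (adjusted p = 0.0685). It passed, lower, with median scaling (adjusted p = 0.0441), quantile normalization (0.0489), no scaling (0.00835) and spike-in scaling (0.00212).

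Gamma subunit genes gave 1 fall among 5 tested, beside 8.01% of all genes. Cacng4, which encodes a partner of neuronal AMPA receptors, gave -4.98 and -4.73 with vehicle and -5.41 and -5.74 with GKA. The groups did not overlap, but 1 of the 2 GKA arrays was not well above background (log2 fold change -0.72 ± 0.17, adjusted p = 0.0430 by limma). With normexp the value turned to 0.13. Cacng1, the gamma subunit of the skeletal muscle channel, gave -5.18 and -4.86 with vehicle and -5.50 and -5.21 with GKA. Neither GKA array was well above background, and the difference did not pass (-0.34, interval -0.77 to 0.10, adjusted p = 0.224). Cacng7, another AMPA receptor partner, gave -2.90 and -2.64 with vehicle and -2.52 and -2.56 with GKA. Its GKA values were the higher ones, by 0.23 on average (adjusted p = 0.288). Cacng2, known as stargazin, gave -4.89 and -4.43 with vehicle and -4.30 and -4.48 with GKA, which overlapped (difference 0.27, adjusted p = 0.350). Cacng6 differed by -0.04.

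Pore-forming sodium channel genes held both genes that rose. Of 6 tested here, Scn1a and Scn3a, which encode brain-type channels, passed with higher values under GKA, beside 9.11% of all genes. The median log2 fold change of these 6 was 0.34. Scn3a, an abundant sodium channel transcript of rodent islets, gave -1.20 and -1.02 with vehicle and -0.42 and -0.43 with GKA. The GKA arrays were nearly equal and lay above both vehicle arrays. The rise was 1.61-fold (log2 fold change 0.68 ± 0.12, interval 0.37 to 0.99, adjusted p = 0.0257 by limma), at chr2:65296320-65296379, minus strand, of mm9, and a second Scn3a probe gave 0.66. Scn1a gave -5.23 and -4.59 with vehicle and -3.78 and -4.03 with GKA. It was dim on all 4 arrays, and its vehicle arrays differed by more than its GKA arrays. The rise was 2.01-fold (log2 fold change 1.01 ± 0.24, interval 0.41 to 1.61, adjusted p = 0.0449), at chr2:66173498-66173557, minus strand. Both stayed above 0 but did not pass without scaling between arrays (Scn1a 0.63, Scn3a 0.30) or with spike-in scaling (0.46 and 0.14). Scn1a was the less firm of them: it also missed the threshold with median scaling (adjusted p = 0.0536) and quantile normalization (adjusted p = 0.0618), and passed in 6 of 15 other settings against 9 for Scn3a.

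Of 10 tested neuron markers, 6 rose, beside 9.11% of all genes, and 4 did not pass, with values from -0.30 (Elavl4) to 0.51 (Nefm), while 10 of the 11 on the array were above background on all 4 arrays. Stmn2, a neuronal microtubule regulator, differed by 0.99 (adjusted p = 0.0114), Tubb3, a neuronal tubulin, by 1.05 (adjusted p = 0.0176) and Prph, a filament protein of peripheral neurons, by 0.89 (adjusted p = 0.0130). Some of the list, such as Snap25, are also expressed by islet endocrine cells. The summed signal of the 11 neuron markers, in multiples of the array's 75th percentile, was 10.01 to 10.17 with vehicle and 12.94 to 13.88 with GKA. Of 10 beta cell markers, 3 rose (G6pc2, Pdx1 and Mafa), beside the same 9.11%, with sums of 1153 to 1163 and 1420 to 1452. Schwann cell and glial markers gave 1 fall among 6 tested, with sums of 11.5 to 13.0 and 10.1 to 10.3, and Cdh19 and Erbb3 were above background on no array. Of the other lists, 4 of 8 leukocyte markers fell, among them Lyz2 and Aif1, beside 8.01% of all genes. The 4 that did not pass (Cd3e, Cd68, Csf1r and Itgam) had values from 0.08 to 0.41. The summed signal of all 10 leukocyte markers was 7.38 to 8.31 with vehicle and 7.85 to 8.34 with GKA. Of 8 fibroblast or stellate cell markers, Col1a2 fell. Among 7 duct markers Spp1 rose and Krt7 fell, among 9 endothelial markers Cdh5 rose and Emcn fell, and Sst rose among 10 markers of other endocrine cells. All these marker counts stand beside 9.11% of all genes called higher and 8.01% called lower. The sums are relative to the 75th percentile, whose intensity was lower with GKA, and were not computed under other scalings. With spike-in scaling the median log2 fold change of all genes was -0.56. The part of these cell types in the channel gene results was not tested.

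The other pore-forming sodium channel genes described here did not pass. Scn8a gave 1.513 and 1.599 with vehicle and 1.591 and 1.252 with GKA. It encodes the channel of nodes of Ranvier, and its groups overlapped (difference -0.13, interval -0.52 to 0.25, adjusted p = 0.566 by limma). Scn9a, the tetrodotoxin-sensitive channel of sensory nerve and of mouse beta cells, differed by 0.35 (interval -0.03 to 0.73, adjusted p = 0.164). Scn4a, the skeletal muscle channel, differed by 0.34 and Scn11a, a channel of pain-sensing neurons, by -0.24. Log2 fold changes above 0 in this class were relative to the 75th percentile, and with spike-in scaling those of Scn4a (-0.21) and Scn9a (-0.20) turned.

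The 2 sodium channel beta subunit genes described here, Scn2b and Scn3b, did not pass. Scn3b gave -1.89 and -2.33 with vehicle and -2.38 and -2.62 with GKA, a difference of -0.39 (adjusted p = 0.200) in which the second vehicle value and the first GKA value nearly met. Scn2b, which binds the pore through a disulfide bond, gave -3.01 and -3.23 with vehicle and -2.71 and -2.46 with GKA. Its GKA values were the higher ones, by 0.53 ± 0.15 (adjusted p = 0.0662), and with spike-in scaling it gave -0.01.

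Not all channel genes could be followed. For 9 genes no probe was well above background on any array. These were Cacna1b, Cacna1e and Cacna1f, the N-type, R-type and retinal L-type pores, the gamma subunit genes Cacng3, Cacng5 and Cacng8, the sodium pores Scn7a and Scn10a, and the beta subunit gene Scn4b. Cacnb4 was above background on 1 GKA array and was not tested. A probe that is not above background gives an upper limit for its signal and says nothing of absence.

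Several of these genes lie side by side in the genome. On chromosome 2, probes of Scn3a, Scn2a1, Scn1a, Scn9a and Scn7a spanned 1218 kb (65295675 to 66514172, mm9). Scn2a1, whose older name lies outside the name rule, gave -5.27 and -4.77 with vehicle and -4.48 and -4.93 with GKA, which overlapped (difference 0.32, adjusted p = 0.381 by limma). The 4 tested genes of this stretch thus all had log2 fold changes above 0, of which Scn1a and Scn3a passed. Scn9a was at -0.0336 without scaling and at -0.20 with spike-in scaling. These settings move all genes by the same amount, so Scn2a1, with a smaller value than Scn9a, also fell below 0 there. On chromosome 11, Cacng1 (-0.34) and Cacng4 (-0.72) lay in 171 kb with Cacng5, and both had lower GKA values, a direction that turned for both with normexp (0.36 and 0.13). On chromosome 7, Cacng6 (-0.04) and Cacng7 (0.23) lay in 69 kb with Cacng8. Neighbouring paralogues are similar in sequence, and cross-hybridisation of their probes was not analysed here.

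Probes of the same gene can be set against each other as a check of the array. For 10 channel genes more than 1 probe passed the background filter. In 2 of them, Cacna1a (-0.14 and 0.18) and Cacnb2 (0.03 and -0.18), the probes pointed in opposite directions, none of these in a gene that passed. Over all genes with several kept probes, 26.2% of 4150 did so. Cacna1g and Scn3a, the called genes with several kept probes, had like values from both, though the further Cacna1g probe was not well above background on GKA replicate 1. The probes of Cacna1h differed more, with 0.12 and 0.67. The called genes Cacna1s, Scn1a and Scn3a also had a probe that failed the filter. That of Cacna1s was above background on no array and differed by 0.43, opposite to the call. That of Scn1a was above it on GKA replicate 2 only (1.27), and that of Scn3a on no array (1.48).

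**Figure D3:**
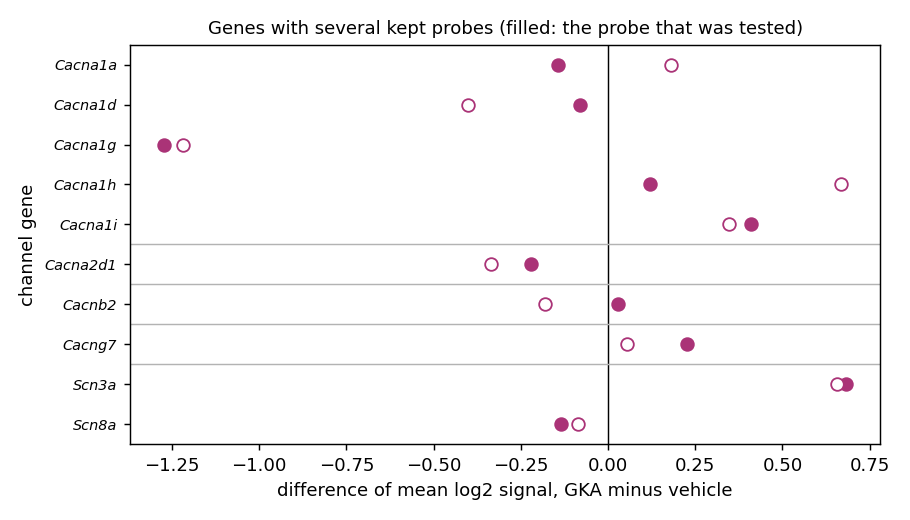
Difference of mean log2 signal, GKA minus vehicle, for each kept probe of the 10 channel genes with several kept probes. Filled points are the tested probes and open points the others; Cacna1g (-1.27 and -1.22) and Scn3a (0.68 and 0.66) show close pairs, and Cacna1a and Cacnb2 lie on either side of 0.

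Genes that act on the channels or on the calcium they admit were counted from lists. Of 25 tested regulators and accessory proteins of the channels, 2 rose and 3 fell (20.0% called, against 17.1% of all genes, median 0.17). This list also holds the pore gene Scn2a1, which the name rule misses and which did not pass. Rem1, a small GTPase that binds calcium channel beta subunits, was above background with GKA only. Set against the lowest signal well above background on the vehicle arrays, it was at least 1.85-fold higher with GKA. Its measured signals differed by 1.01 on the log2 scale (adjusted p = 0.0110 by limma). Stac, an adaptor of L-type channels, differed by 0.57 (adjusted p = 0.0342). Ank2, the ankyrin that anchors membrane channels and exchangers, gave 1.598 and 1.720 with vehicle and 0.682 and 1.113 with GKA (difference -0.76, adjusted p = 0.0427). Unc80, a subunit of the sodium leak channel complex, differed by -0.68 (adjusted p = 0.0487), and Nedd4l, a ubiquitin ligase of sodium channels, by -0.65 (adjusted p = 0.0251). Nalcn, the leak channel pore itself, did not pass (-0.36, adjusted p = 0.219).

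Of 23 tested genes for calcium stores, pumps and exchangers, 2 passed, both lower (8.70% called, against 17.1% of all genes, median 0.08). Itpr2, an inositol trisphosphate receptor of the endoplasmic reticulum, gave 1.58 and 0.93 with vehicle and -0.19 and -0.35 with GKA. Its vehicle arrays lay far apart, yet both were above the GKA arrays (difference -1.52 ± 0.23, adjusted p = 0.0177 by limma). Atp2a2, the calcium pump SERCA2, gave 3.49 and 3.45 with vehicle and 2.71 and 2.81 with GKA (difference -0.71, adjusted p = 0.0198). Of 22 calcium-dependent kinases and phosphatases, 2 passed, both lower (9.09% called, against the same 17.1%, median -0.15). These were Camk1g, a calmodulin-dependent kinase (-0.76, adjusted p = 0.0392), and Prkcb, protein kinase C beta (-0.56, adjusted p = 0.0368).

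Potassium channel genes oppose the depolarisation that opens calcium and sodium channels. They were taken as genes whose name begins with Kcn, which also takes in Kcnq1ot1, a non-coding RNA that did not pass. Of 63 tested, 7 rose and 8 fell, so 23.8% were called against 22.2% of the calcium and sodium channel genes and 17.1% of all genes, and their median was -0.04. Their values reached further in both directions, in a set with more tested genes, and the highest value was that of Kcnf1. Kcnh4, an ether-a-go-go type channel, was higher by 1.66 (adjusted p = 0.00556 by limma), and Kcnj12, an inward rectifier, differed by -1.92 on the log2 scale (adjusted p = 0.00370). Kcnf1 was above background with GKA only. Set against the lowest signal well above background on the vehicle arrays, it was at least 3.75-fold higher with GKA. Its measured signals differed by 1.96 on the log2 scale (adjusted p = 0.00341 by limma). Kcnk10 was likewise above background with GKA only, and its measured signals differed by 1.31 on the log2 scale (adjusted p = 0.00883 by limma). On both vehicle arrays it lay above that lowest signal without being well above background, so such bounds are not strict limits. Kcng3 was above background on neither GKA array and, by the same kind of bound, was at least 1.59-fold lower. Its measured signals differed by -1.38 (adjusted p = 0.00756 by limma). Kcnj10, another inward rectifier, was above background on only 1 GKA array and differed by -0.99 (adjusted p = 0.0143 by limma).

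**Figure D4:**
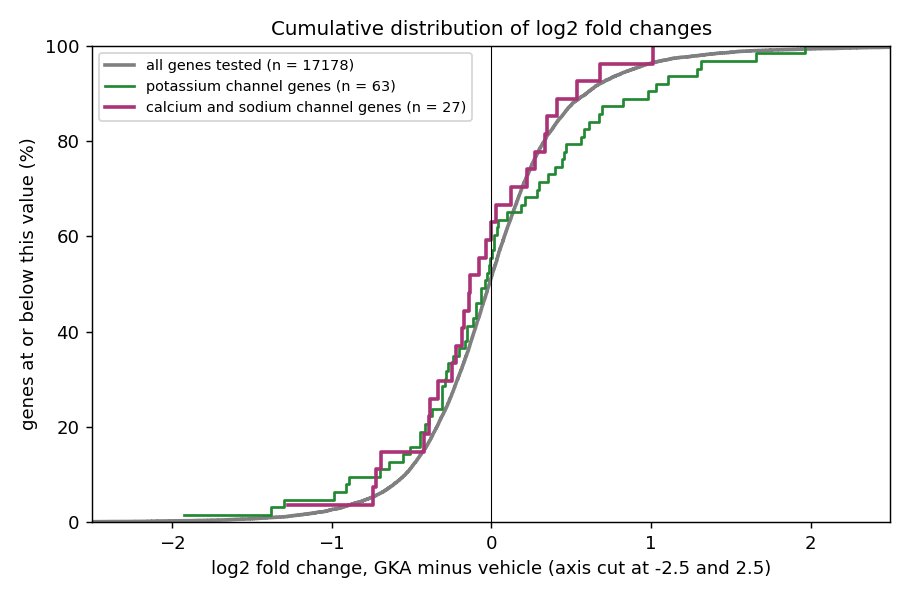
Cumulative share of genes, in percent, at or below each log2 fold change, GKA minus vehicle, for all 17178 genes tested, 63 potassium channel genes and 27 calcium and sodium channel genes. The calcium and sodium channel curve spans -1.27 to 1.01 and crosses 50% at -0.13, and the potassium channel curve, of more genes, spans -1.92 to 1.96. Its upper end is Kcnf1, which was above background on neither vehicle array.

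The 6 calls rest on few arrays. Without GKA replicate 1, limma called 0 channel genes, with 9 at an unadjusted p of 0.05, and without GKA replicate 2 likewise 0, with 8. Without vehicle replicate 1, it called 3 (Cacna1g, Cacnb3 and Cacng4), and without vehicle replicate 2, 5 (all but Cacng4). Signs held for all 6 in each of these fits. The 75th percentile scaling also bears on the count, since the median of all genes was -0.40 when arrays were not scaled to each other and -0.56 with spike-in scaling. Relative to the 75th percentile, 4 channel genes were lower and 2 higher, whereas the 14 called without scaling and the 15 called with spike-in scaling were all lower. With normexp the balance turned the other way, with 7 of 8 called genes higher and Cacnb3 lower. Over all genes, normexp called 2999 higher and 2054 lower, with a median of 0.06. For 22 channel genes the 95% interval of the difference stayed within 1 log2 unit of 0 on either side.

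**Figure D5:**
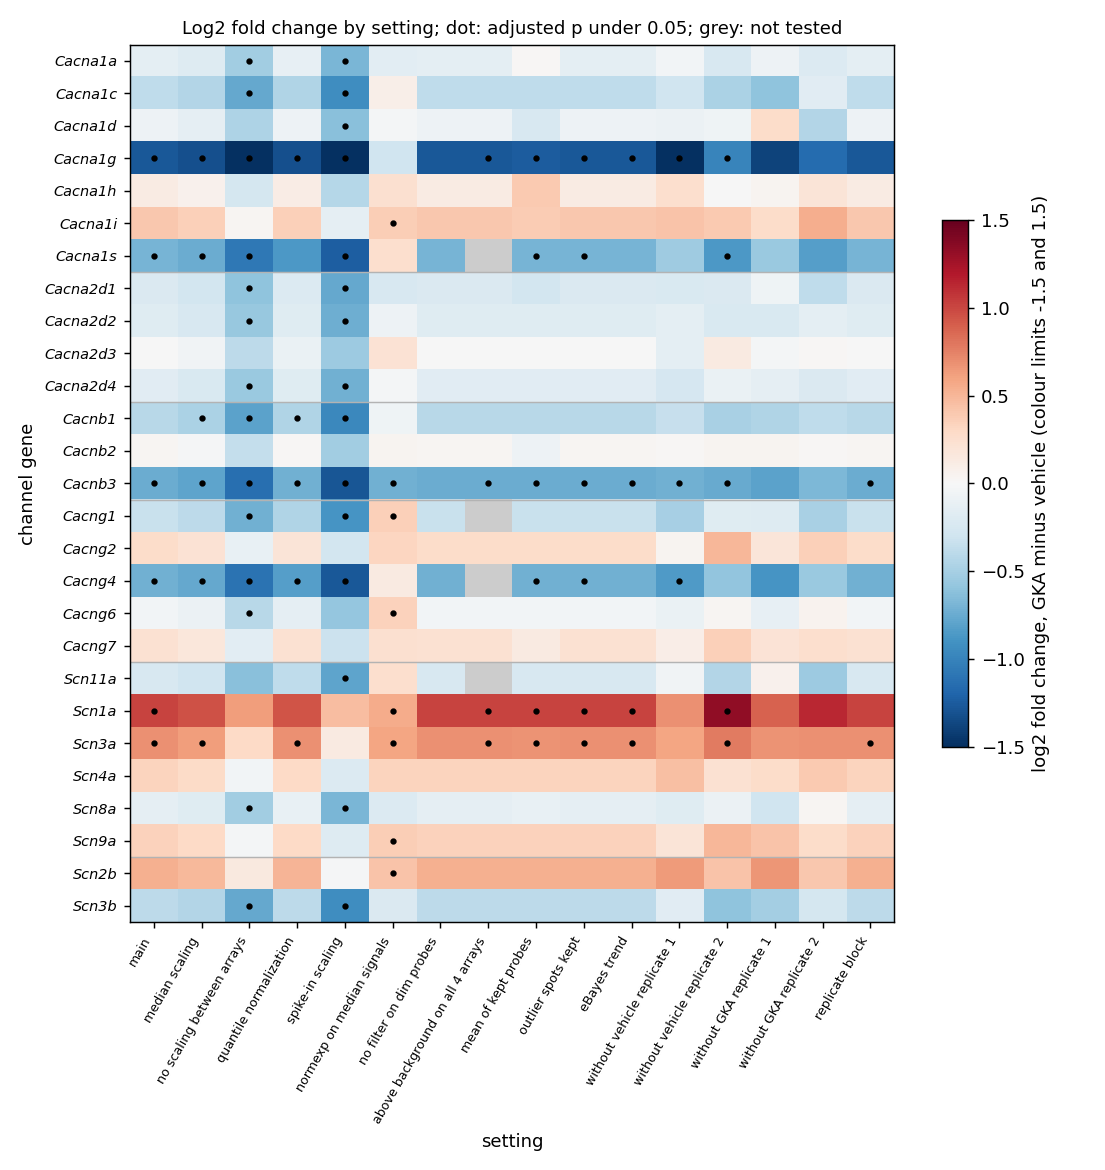
Log2 fold change of each tested channel gene, GKA minus vehicle, in the reported fit (first column, main) and in 15 other settings, with dots for an adjusted p under 0.05 and grey for a gene not tested there. Cacnb3 keeps its dot in 12 of the other settings and Cacna1g in 10, and the columns without GKA replicate 1 or GKA replicate 2 carry no dot.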

How the data were processed

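RNA from 2 vehicle and 2 GKA islet samples was hybridised to 1-colour Agilent mouse arrays. The deposited array files hold an intensity per spot, background-subtracted and detrended by Agilent Feature Extraction, version 10.7.3.1 per the file headers and 9.1 per the submitters' processing notes. Gene names and mm9 probe positions came from the authors' deposited ratio table, whose group intensity, for single-spot probes, was the unscaled array mean to a tolerance of 0.1%, and whose ratio was not otherwise used. The labels give no further scaling by the authors.

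From these files, log2 intensity minus each array's 75th percentile was computed. Control spots and outlier-flagged spots were left out (1 named gene had no complete probe), and spots of a probe were averaged. A probe stayed if either group had it well above background on both its arrays (24481 of 39429 non-control probes), and a gene took its kept probe with the highest mean. Groups were compared with limma 3.58.1 (lmFit and eBayes, R 4.3.3, two-sided, Benjamini-Hochberg, threshold 0.05), with 2 residual and 3.33 prior degrees of freedom, after a test on simulated data. An exact permutation test of 2 against 2 arrays cannot go below p = 0.333 and was not used. Precision is limited by the 4 arrays. All 37 genes described matched RefSeq by Entrez identifier with an unchanged symbol. Exon or UTR positions of probes were not analysed here.

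The genes and lists were chosen with earlier results of these data known. Of the name rule's genes, 2 are not reported here and are left out of the counts over channel genes. By rule, every other channel gene is named, per-array values are given for those that passed, had no array of a group above background, were the 2 brightest of a class or differed by at least 1.5-fold without overlap, and up to 3 passed genes per direction are named from each list of related genes. Per-array values of Scn2b, and Nalcn and Scn2a1, were added after their values were seen. Alternatives covered scaling, background correction, filters, probe choice, a replicate block and leaving out each array.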

Additional observations from a re-analysis of the deposited data

How the results depend on the processing

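Of the 27 channel gene values, 27 kept direction and side of the threshold with outlier spots kept, 25 with an intensity trend in eBayes, 25 with the mean of kept probes, 24 with median scaling, 24 with quantile normalization, and 23 of the 23 tested when probes had to be above background on all 4 arrays. The planned normexp on mean signals was not run because the array files used here hold no such column, and median signals were used instead, a choice made after seeing the files.

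Over all genes, 2941 changed. The count was 8404 without scaling between arrays, 8058 with spike-in scaling, 5053 with normexp, 223 without a filter on dim probes, and 533 to 2835 when each array was left out. Median scaling gave 1381 higher and 1848 lower, no scaling 750 and 7654, spike-in scaling 434 and 7624, and normexp 2999 and 2054. Among channel genes, 6 changed in the reported fit, 14 without scaling, 15 with spike-in scaling, 8 with normexp (7 higher and 1 lower, against 2 and 4 in the reported fit), 0 without the filter (11 at an unadjusted p of 0.05 by limma), and 0 to 5 with an array left out. Regulators changed from 5 to 10 without scaling, 3 with quantile normalization, 9 with spike-in scaling and 0 to 3 with an array left out. Stores and pumps changed from 2 to 7 without scaling, 9 with spike-in scaling and 0 to 4 with an array left out. Kinases and phosphatases changed from 2 to 4 with median scaling, 15 without scaling, 15 with spike-in scaling and 0 to 1 with an array left out. Potassium channel genes changed from 15 to 32, 35 and 6 to 16 in the settings without scaling, with spike-in scaling and with an array left out. The 0 counts with an array left out are limma's at the adjusted threshold. In the reported fit, 9 of 27 channel genes and 6208 of 17178 genes over all had an unadjusted p under 0.05 by limma. That count over all genes is not given for the other settings.

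The replicate block took 1916 genes in all, 2 channel genes (Cacnb3 and Scn3a) and 3 regulators past the threshold. Same-numbered samples correlated at 0.0751 in their deviations over genes. With 2 pairs, this value cannot tell whether they share an animal or a culture, which the labels do not state.

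Directions turned in these cases. The mean of kept probes gave Cacna1a 0.0195 and Cacnb2 -0.0755, and median scaling gave Cacnb2 -0.0221. Without scaling, values were -0.26 for Cacna1h, -0.36 for Cacnb2, -0.11 for Cacng2, -0.16 for Cacng7, -0.0454 for Scn4a and -0.0336 for Scn9a. With spike-in scaling they were -0.43 for Cacna1h, -0.14 for Cacna1i, -0.52 for Cacnb2, -0.28 for Cacng2, -0.32 for Cacng7, -0.21 for Scn4a, -0.20 for Scn9a and -0.0131 for Scn2b. With normexp they were 0.083 for Cacna1c, 0.25 for Cacna1s, 0.22 for Cacna2d3, 0.36 for Cacng1 (adjusted p = 0.0360), 0.13 for Cacng4, 0.34 for Cacng6 (adjusted p = 0.0348) and 0.26 for Scn11a. Leaving out each array gave ranges of -0.44 to 0.28 for Cacna1d, -0.0046 to 0.25 for Cacna1h, -0.15 to 0.14 for Cacna2d3, -0.12 to 0.0493 for Cacng6, -0.55 to 0.0611 for Scn11a and -0.30 to 0.0348 for Scn8a. The cause was not tested for any of these. Fits with an array left out assume that the lone array of a group varies like the other group. Dim signal limits Cacna1s, Cacng1, Cacng4 and Scn11a, which were not above background on every array.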

Other observations

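Gem, a small GTPase that binds calcium channel beta subunits, gave -2.17 and 0.37 with vehicle and -1.05 and -0.97 with GKA, so its vehicle arrays lay on either side of the GKA pair (log2 fold change -0.11 ± 0.79, adjusted p = 0.934 by limma). It was singled out after its values were seen, for the distance between its vehicle arrays.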
